A study of Mus musculus with 2 samples.

Results

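Hsf1, the main transcription factor of the heat shock response, and 9 heat shock genes were described in tumour epithelial cells with and without a conditional knockout of Zeb1. The 10 genes (Hsf1, Hsph1, Hspa1a, Hspa1b, Hspa8, Hspa4l, Hsp90aa1, Hspb1, Dnajb1 and Bag3) were taken by symbol from the 16902 genes that the deposited tables list. All 10 had a value in both tables, and all 10 passed the filter of at least 1 FPKM (fragments per kilobase of gene and per unit of sequencing depth) in at least 1 library. The cells carried EpCAM and came from mouse mammary tumours of PyMT mice, a breast cancer model that expresses the polyoma virus middle T oncogene, and of PyMT;Zeb1cKO mice, in which Zeb1 is also deleted conditionally. Both groups therefore share PyMT, and they differ by the Zeb1 deletion. Zeb1 represses epithelial genes, and the study asks how it acts on tumour macrophages through the cancer cells. Each group has 1 library, named here PyMT cells and knockout cells, with 21580274 estimated counts for PyMT and 21277484 for the knockout. Strain, age, the promoters behind PyMT and Cre, the deleted part of Zeb1, the pooling of tumours and the way the tumours were dissociated are not stated in the labels. With no replicates there is no test, all differences are between these 2 libraries, and genotype cannot be told apart from tumour, animal or handling.

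Heat shock proteins are chaperones that bind unfolded proteins and keep them from aggregating. At rest HSF1 is held inactive by chaperones. When unfolded proteins accumulate it is released, forms trimers and binds heat shock elements, which are inverted repeats of the letters GAA, in the promoters of chaperone genes. HSP70 proteins work in a cycle in which J-domain proteins such as DNAJB1 load the client and nucleotide exchange factors such as HSPH1 and BAG3 release it, HSP90 proteins mature kinases and receptors, and small heat shock proteins such as HSPB1 hold clients without using ATP. Hspa8 and Hsp90ab1 are made in most cells at all times, whereas Hspa1a and Hspa1b are low at rest and strongly induced by stress. The same stress genes are also known to respond to the dissociation of tissues.

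The genes split into a higher and a lower set. In the knockout library 4 of the 10 were higher (Hsph1, Hspa8, Hsp90aa1 and Hsf1), where 58% of all genes compared were, and 6 were lower (Hspa1b, Hspb1, Hspa1a, Dnajb1, Bag3 and Hspa4l). The log2 ratio sets the knockout library over the PyMT library after a pseudocount of 1 FPKM was added to each value, which understates the difference of low genes. Its median over the 10 genes was -0.52, against 0.13 over all 12653 genes compared. Of the 10, 2 were at least 2-fold higher, where 10.2% of all genes compared were, and 1 was at least 2-fold lower, where 8.78% were. In either direction these are 3 of 10, against 19% of all genes compared, which is too few genes to set the 10 apart from the background. The count of higher genes also depended on whether an unnamed gene model with the same protein match was added to Hspa8, as described with its values.

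The promoters of 7 of the 10 genes were matched by symbol in the RefSeq promoter table of GRCm38.p6, which gives 300 bases per start site, the last 50 of them after the start. The 250 bases before a listed start are shown for 4 genes, each of which holds a pair of inverted GAA units there. They are shown because 3 of them (Hspa1a, Hspa1b and Hspb1) were lower in the knockout library and Hsph1 was higher. Sequences run 5′ to 3′ along the strand of the gene, and capitals mark a match to GAANNTTC or TTCNNGAA, each of which reads the same on both strands.
Hspa1a (chr17:34972157-34972406, minus strand): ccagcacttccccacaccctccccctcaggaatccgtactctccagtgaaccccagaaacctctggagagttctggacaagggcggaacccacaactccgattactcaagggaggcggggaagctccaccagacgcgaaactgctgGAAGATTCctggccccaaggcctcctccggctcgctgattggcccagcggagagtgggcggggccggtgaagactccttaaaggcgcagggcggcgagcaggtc
Hspa1b (chr17:34959239-34959488, minus strand): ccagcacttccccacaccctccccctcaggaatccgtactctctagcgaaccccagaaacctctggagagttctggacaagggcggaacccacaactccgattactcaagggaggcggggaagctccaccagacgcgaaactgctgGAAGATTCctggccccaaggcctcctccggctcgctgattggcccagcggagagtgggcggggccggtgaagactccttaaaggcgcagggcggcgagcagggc
Hspb1 (chr5:135887669-135887918, plus strand): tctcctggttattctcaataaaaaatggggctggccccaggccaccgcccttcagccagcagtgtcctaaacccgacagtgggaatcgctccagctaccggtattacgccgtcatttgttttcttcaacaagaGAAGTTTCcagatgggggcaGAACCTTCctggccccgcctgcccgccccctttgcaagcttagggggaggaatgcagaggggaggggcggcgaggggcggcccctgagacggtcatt
Hsph1 (chr5:149636337-149636586, minus strand, the first of its listed starts): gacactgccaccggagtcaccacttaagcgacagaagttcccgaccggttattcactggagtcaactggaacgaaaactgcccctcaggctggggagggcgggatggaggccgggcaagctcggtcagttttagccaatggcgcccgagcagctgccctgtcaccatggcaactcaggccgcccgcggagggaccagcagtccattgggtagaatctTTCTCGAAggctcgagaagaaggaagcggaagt
A pair was found in the 300-base windows of 5 of the 7 genes, Hsph1, Hspa1a, Hspa1b, Hspb1 and Bag3, and in 15.1% of the 32851 windows of the table. The former counts genes with a match in any window, and Hsph1 and Dnajb1 have more than 1 window. Hspa1a and Hspa1b hold the same match in near-identical sequence, so they are not separate observations. In Hspa1a and Hspa1b the match began 104 bases before the start, and in Hspb1 the matches began 117 and 97 bases before it. In Hsph1 a match began 33 bases before the start shown. That start lies inside the gene span given for Hsph1, whose 5′ end is at 149636498. Part of the bases shown for Hsph1, with the match, therefore lies within the gene, unlike in the other genes shown. A run of 3 units (GAA, TTC, GAA or TTC, GAA, TTC, with NN between neighbours) was also searched. These runs are each other's reverse complement, and each contains both pairs. Such a run was found in 1 of the 7, Hsph1, downstream of its listed starts, and in 0.603% of all windows. The table has no window for Hsf1, Hspa8 and Hsp90aa1, which are 3 of the 4 higher genes, so on the higher side Hsph1 alone could be searched. These matches describe the letters only.

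The Hsf1 transcript differed by less than 2-fold. Hsf1 (Entrez gene 15499, chromosome 15, 76477362 to 76501155, GRCm38.p6) was at 18.03 FPKM in PyMT cells and 24.61 in knockout cells, with 764.08 and 1036 estimated counts. Its count ratio, knockout over PyMT per total count, was 1.38, with an exact 95% counting interval of 1.25 to 1.51. Such intervals cover counting error only, and no spread between animals can be given. The estimated count was not whole in the PyMT library, so some of its reads were shared with another gene model. HSF1 is regulated mainly at the protein level, so its transcript is not a measure of its activity.

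**Figure D1:**
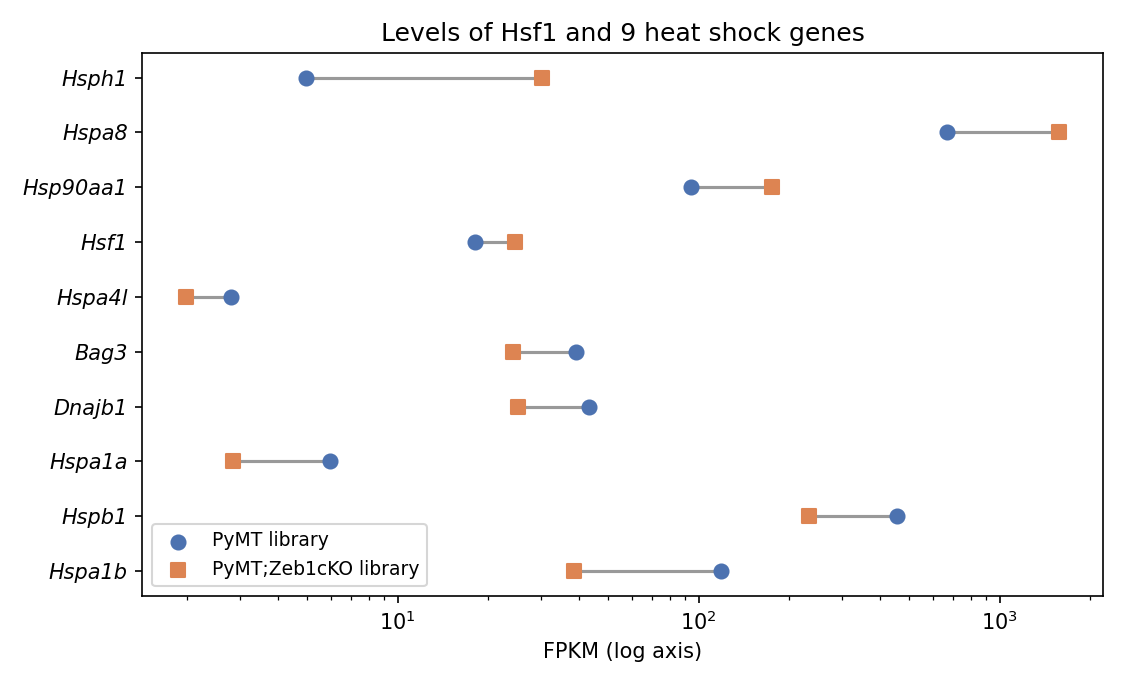
FPKM (log axis) of Hsf1 and the 9 heat shock genes in the PyMT library (circles) and the PyMT;Zeb1cKO library (squares), 1 library each, ordered by log2 ratio. Hsph1 lies at 4.95 and 30.07, whereas Hspa1b differs the other way, at 118.57 and 38.42.

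Among the HSP110 genes, which encode nucleotide exchange factors of HSP70, Hsph1 had the highest log2 ratio of the 10. Hsph1 (Entrez gene 15505, chromosome 5, 149616843 to 149636498) was at 4.95 FPKM in PyMT cells and 30.07 in knockout cells. With 351 and 2114 whole counts, its count ratio was 6.11 (5.45 to 6.86). Its log2 ratio of 2.38 was above that of 99.1% of the genes compared. Hspa4l (Entrez gene 18415, chromosome 3, 40744500 to 40796103), a family member known for its role in the testis, was low, at 2.80 and 1.98 FPKM with 205 and 143 counts. Its count ratio was 0.707 (0.567 to 0.88), opposite in direction to that of Hsph1. The more widely made paralog Hspa4, from the list of other HSP70 and HSP110 genes, was at 34.96 and 64.53 FPKM, a count ratio of 1.85 (1.78 to 1.93). The FPKM of Hsph1 was 14.2% of that of Hspa4 in PyMT cells and 46.6% in knockout cells. Summed over Hsph1, Hspa4 and Hspa4l, the counts were 3927 and 8413, or 0.0182% and 0.0395% of each library, a ratio of 2.17 (2.09 to 2.26).

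The inducible HSP70 genes were lower in the knockout library. Hspa1b (Entrez gene 15511, chromosome 17, 34956429 to 34959238) was at 118.57 FPKM in PyMT cells and 38.42 in knockout cells, a count ratio of 0.327 (0.311 to 0.343) and a log2 ratio of -1.60. It was the 1 gene of the 10 past 2-fold lower, and 3.48% of the genes compared had a lower log2 ratio. Hspa1a (Entrez gene 193740, chromosome 17, 34969359 to 34972156) was at 5.95 and 2.84 FPKM, a count ratio of 0.481 (0.396 to 0.583) and a log2 ratio of -0.86. The log2 ratio of Hspa1a was -1.04 with a pseudocount of 0.1, past 2-fold.

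These genes are near-identical copies of 1 exon each, with 10120 bases between them, so their separate values are uncertain. Their open reading frames in GENCODE M21 (1926 bases in Hspa1a and 1929 in Hspa1b) were 99.4% identical, with 8 differing bases and 3 gap bases. The 250 bases upstream, shown with the promoters, differed at 3 positions. Of all 100-base windows of the Hspa1a transcript, 47.1% occurred unchanged in the Hspa1b transcript, and 0 occurred in the Hspa8 transcript. Accordingly the estimated counts were not whole, at 334.79 and 158.8 for Hspa1a and 6709.19 and 2160.18 for Hspa1b. The Hspa1b row also carries 2 unnamed transcripts beside its RefSeq transcript, and its deposited annotation cites protein matches to both copies. Hspa1b took 95.2% of the counts of the pair in PyMT cells and 93.2% in knockout cells, a split that cannot be checked from these tables. With the neighbouring Hspa1l, a germ cell HSP70 gene at 47.01 and 30.01 counts, the 3 rows summed to 7090.99 and 2348.99, whole within 0.015. The sum of Hspa1a and Hspa1b does not depend on how reads were divided between them, and its count ratio was 0.334 (0.318 to 0.35), at 124.52 and 41.26 summed FPKM.

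Hspa8, the constitutive HSP70 and the most abundant of the 10 in both libraries, was higher in the knockout library, by an amount that depended on an unnamed gene model. Hspa8 (Entrez gene 15481, chromosome 9, 40801276 to 40805202) was listed at 667.47 FPKM in PyMT cells and 1572.82 in knockout cells, a count ratio of 2.38 (2.34 to 2.41). Its estimated counts, 27579.84 and 64597.55, were not whole. An unnamed gene model of 2110 bases, against 2104 for Hspa8, has the same best protein match in the deposited annotation. That model was at 304.74 FPKM in PyMT cells and 0.18 in knockout cells, with 12631.16 and 7.45 counts. The counts of Hspa8 and this model summed to 40211 and 64605, whole within 0.015 in both libraries, although neither row is whole by itself. The unnamed model held 31.4% of the joint count in PyMT cells and 0.0115% in knockout cells.

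With the pair summed, Hspa8 was at 972.21 and 1573 FPKM, a count ratio of 1.63 (1.61 to 1.65) and a log2 ratio of 0.69 in place of 1.24. It was then no longer past 2-fold, and Hsph1 was the 1 gene of the 10 that was 2-fold higher. Whether the reads of the unnamed model come from Hspa8 or from another locus was not tested. Inducible Hspa1a and Hspa1b together were at 12.8% of the FPKM of Hspa8 and the unnamed model in PyMT cells and at 2.62% in knockout cells. Summed, these cytosolic HSP70 rows (Hspa8, the unnamed model, Hspa1a and Hspa1b) took 0.219% of the counts in PyMT cells and 0.315% in knockout cells, a ratio of 1.44 (1.42 to 1.45). This sum was thus higher in the knockout library while its inducible portion was lower. Other HSP70 genes are not in the sum.

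**Figure D2:**
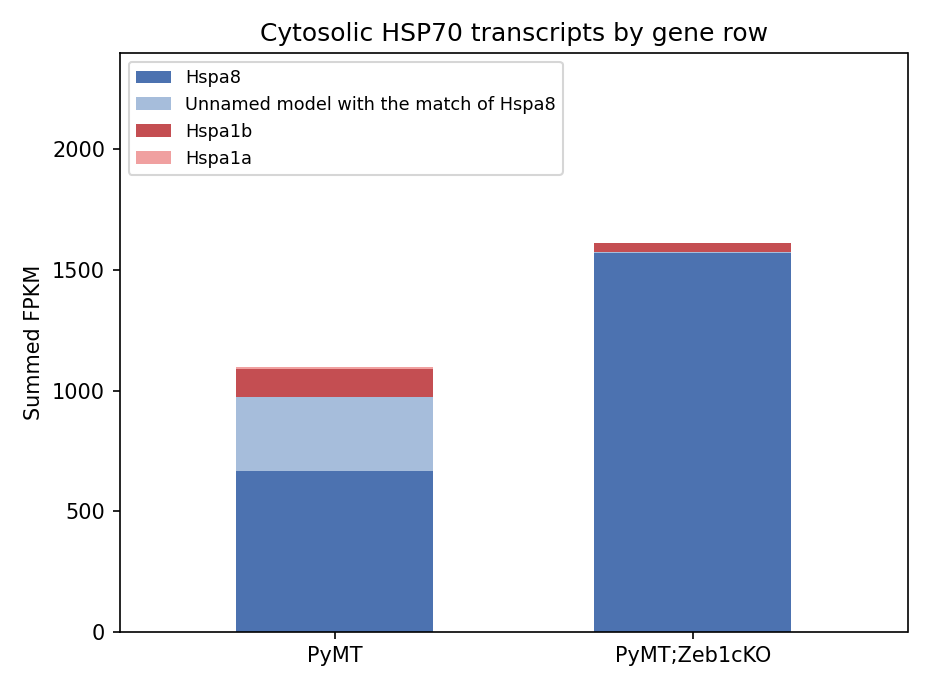
Summed FPKM of the cytosolic HSP70 rows in each library, stacked by row of the deposited tables, 1 library per bar. The unnamed model stands at 304.74 FPKM in the PyMT library and is not visible at 0.18 in the knockout library, and the Hspa1b segment is 118.57 in the former and 38.42 in the latter.

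Of the HSP90 genes, the inducible form differed more than the constitutive form. Hsp90aa1 (Entrez gene 15519, chromosome 12, 110691036 to 110696395) was at 93.92 FPKM in PyMT cells and 175.79 in knockout cells. With whole counts of 5393 and 10010, its count ratio was 1.88 (1.82 to 1.95). The constitutive Hsp90ab1, a gene of the list of other HSP90 genes, was at 1328.61 and 1743.96 FPKM, a ratio of 1.32 (1.31 to 1.33). The FPKM of Hsp90aa1 was 7.07% of that of Hsp90ab1 in PyMT cells and 10.1% in knockout cells. Summed, these HSP90 genes took 0.333% and 0.454% of the counts, a ratio of 1.36 (1.35 to 1.38). Hsp90aa1, an inducible gene, therefore differed in the opposite direction to Hspa1a and Hspa1b.

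The small heat shock protein gene Hspb1 and the cochaperone genes Dnajb1 and Bag3 were lower in the knockout library, whereas the nucleotide exchange factor gene Hsph1 was higher. Hspb1 (Entrez gene 15507, chromosome 5, 135887919 to 135889563), which encodes the small heat shock protein HSP27 of human nomenclature, was at 456.67 FPKM in PyMT cells and 233.33 in knockout cells. It had 7159 and 3695 whole counts, a count ratio of 0.523 (0.503 to 0.545) and a log2 ratio of -0.97, short of 2-fold. With scalings that move the median of all genes from 0.13 to about 0, it was past 2-fold, at -1.12 with both the median ratio and TMM factors, and with TPM it was at -1.02.

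Dnajb1 (Entrez gene 81489, chromosome 8, 83608175 to 83612653), the main J-domain partner of inducible HSP70, was at 43.26 and 25.02 FPKM. Its counts of 2641 and 1514 gave a ratio of 0.581 (0.545 to 0.62). Bag3 (Entrez gene 29810, chromosome 7, 128523583 to 128546981), which couples HSP70 to small heat shock proteins and to autophagy, was at 39.18 and 24.09 FPKM. Its counts of 2048 and 1247 gave a ratio of 0.618 (0.575 to 0.663). Hspb1, Dnajb1 and Bag3 thus lay between 0.523 and 0.618, nearer to each other than to the Hspa1a and Hspa1b sum at 0.334, and their counts were whole in both libraries.

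**Figure D3:**
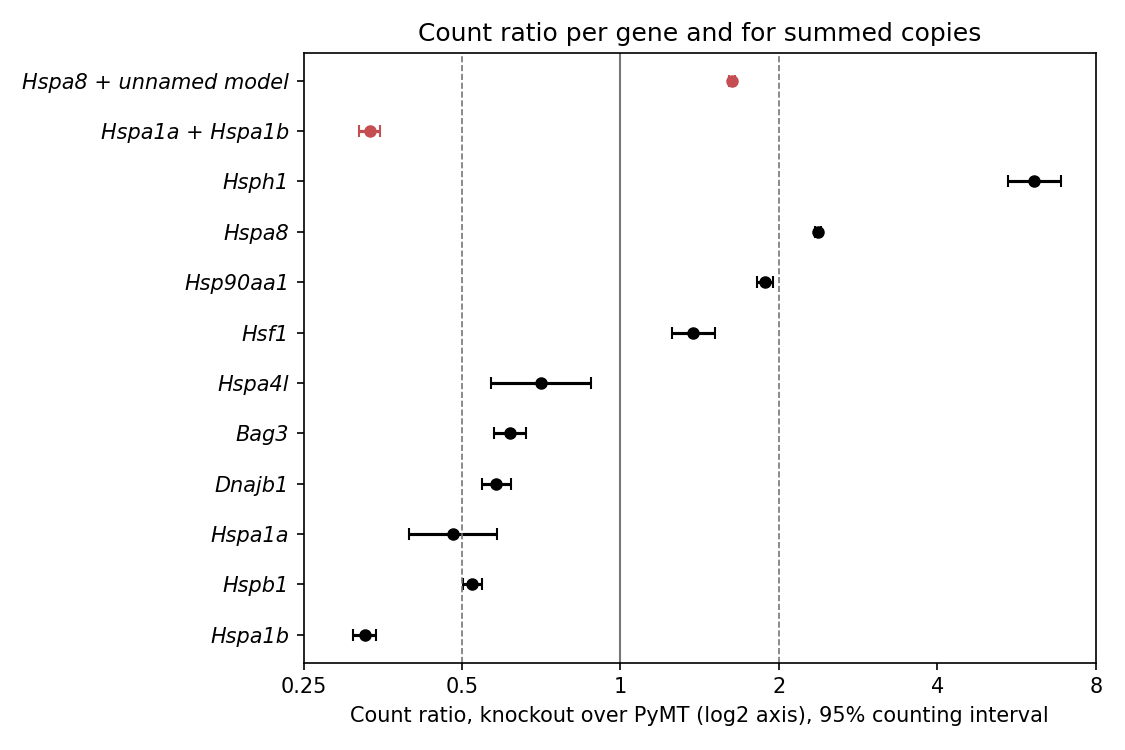
Count ratio (knockout over PyMT, log2 axis) of each gene with its exact 95% counting interval, and in red the ratios of the summed rows. Dashed lines mark 2-fold, and Hspa8 drops from 2.38 to 1.63 when the unnamed model is added, whereas Hspa1b at 0.327 hardly differs from the Hspa1a and Hspa1b sum at 0.334.

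Ordered by FPKM, the PyMT library ran from Hspa8 through Hspb1, Hspa1b, Hsp90aa1, Dnajb1, Bag3, Hsf1, Hspa1a and Hsph1 to Hspa4l. In the knockout library Hsp90aa1 stood above Hspa1b, and Hsph1 moved from rank 9 to rank 5. By counting error alone, the intervals of neighbours overlapped in the PyMT library only for Hspa1a (5.33 to 6.63 FPKM) and Hsph1 (4.45 to 5.50). In the knockout library those of Dnajb1 (23.8 to 26.3), Hsf1 (23.1 to 26.2) and Bag3 (22.8 to 25.5) overlapped, and so no order among them can be read. With 2 libraries a likeness of pattern is only a ratio, so no other gene is named as most like these.

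Other chaperone genes were counted in 9 lists of 117 genes, of which 115 were found and 109 passed the filter. Of the 109, 10 were at least 2-fold higher, 12 were at least 2-fold lower and 87 lay within 2-fold, with a median log2 ratio of 0.25 against 0.13 for all genes compared. These shares of 9.17% and 11.0% stood near the background of 10.2% and 8.78%. The lists themselves lay apart from each other, with medians from -1.72 for the other small heat shock proteins to 0.57 for the HSP90 and HSP70 cochaperones.

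HSP90 and HSP70 cochaperones had a log2 ratio above 0 in 14 of 18 genes, with 6 past 2-fold higher and 1 past 2-fold lower. For all genes compared these shares were 58%, 10.2% and 8.78%. The 6 were the cyclophilin gene Ppid (5.21 FPKM in PyMT cells and 25.04 in knockout cells, count ratio 4.85, 4.12 to 5.75), Chordc1 (6.60 and 22.74, ratio 3.47), Stip1, Fkbp4, Cacybp and Ahsa1. Stip1, which bridges HSP70 and HSP90, was at 58.80 and 146.59, and Ahsa1, the activator of the HSP90 ATPase, at 67.22 and 137.29. Stip1, Fkbp4, Cacybp and Ahsa1 are named beyond the preset rule to complete the 6. With the median ratio or TMM factors 4 were past 2-fold, without Ahsa1 and Cacybp, and 13 of 18 were above 0. With TPM Ahsa1 alone dropped under 2-fold, which left 5. The exception was Fkbp5, an immunophilin and textbook target of the glucocorticoid receptor, at 119.51 and 22.55 FPKM, a count ratio of 0.189 (0.18 to 0.199). Unc45a, a myosin chaperone that also binds HSP90, was next lowest, at 48.79 and 42.23.

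Chaperonins and prefoldin had a log2 ratio above 0 in 15 of 16 genes, where 58% of all genes compared did. The count was also 15 with the scalings that centre all genes. The median was 0.51, and 1 of the 16 was past 2-fold higher, where 10.2% of all genes compared were. That gene was the mitochondrial chaperonin Hspd1, at 45.44 and 150.97 FPKM with a count ratio of 3.35 (3.19 to 3.51), and its partner Hspe1 was at 127.09 and 233.28. All 8 subunits of the CCT chaperonin, which folds actin and tubulin, had a ratio above 0 and within 2-fold, with a median of 0.46, and the lowest of them was Cct8, at 96.08 and 112.17 FPKM. Prefoldin subunit Pfdn5 was the 1 lower gene, at 316.33 and 272.79 FPKM. All 3 other HSP90 genes were within 2-fold. Hsp90b1 of the endoplasmic reticulum was at 119.97 and 122.66, and mitochondrial Trap1 at 65.80 and 92.77.

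Of 34 other J-domain genes, 31 lay within 2-fold, while 19% of all genes compared were past it. The higher ones were Dnajc9, a histone chaperone linked to replication (11.92 and 52.73 FPKM, ratio 4.47, 3.99 to 5.02), and Dnaja1 (33.37 and 69.73, log2 ratio 1.04). Dnaja1 was short of 2-fold with each of the other scalings, at 0.89 with the median ratio and with TMM factors and 0.99 with TPM. Dnaja4 was lower (9.79 and 3.35, ratio 0.344, 0.292 to 0.405), and Dnajc5, which encodes a protein of secretory vesicles, was at 42.83 and 27.62. Among 8 other HSP70 and HSP110 genes none passed 2-fold, and the endoplasmic reticulum chaperone Hspa5 was the lowest at 345.17 and 225.37. Mitochondrial Hspa9 was at 163.89 and 131.69, and Hspa14, which works at the ribosome, at 19.76 and 30.80. Of 9 nucleotide exchange factors the mitochondrial Grpel2 was the 1 past 2-fold, at 14.59 and 6.16 FPKM, with non-whole counts, while Bag1 was at 151.62 and 224.68, Bag4 at 3.54 and 6.29, and Sil1 of the endoplasmic reticulum at 47.68 and 30.40. The 5 measured heat shock factors and HSF1 regulators all lay within 2-fold with a pseudocount of 1. The lowest was Hsf2bp, which encodes a binding partner of HSF2, at 1.59 and 0.68 FPKM, and its log2 ratio of -0.62 was -1.12 with a pseudocount of 0.1, past 2-fold lower. Hsf2, which can pair with HSF1, was at 3.85 and 3.80 FPKM, Ier5, which promotes HSF1 activity, at 59.39 and 40.49, and Hsbp1, which encodes an HSF1-binding protein, at 93.69 and 99.54.

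**Figure D4:**
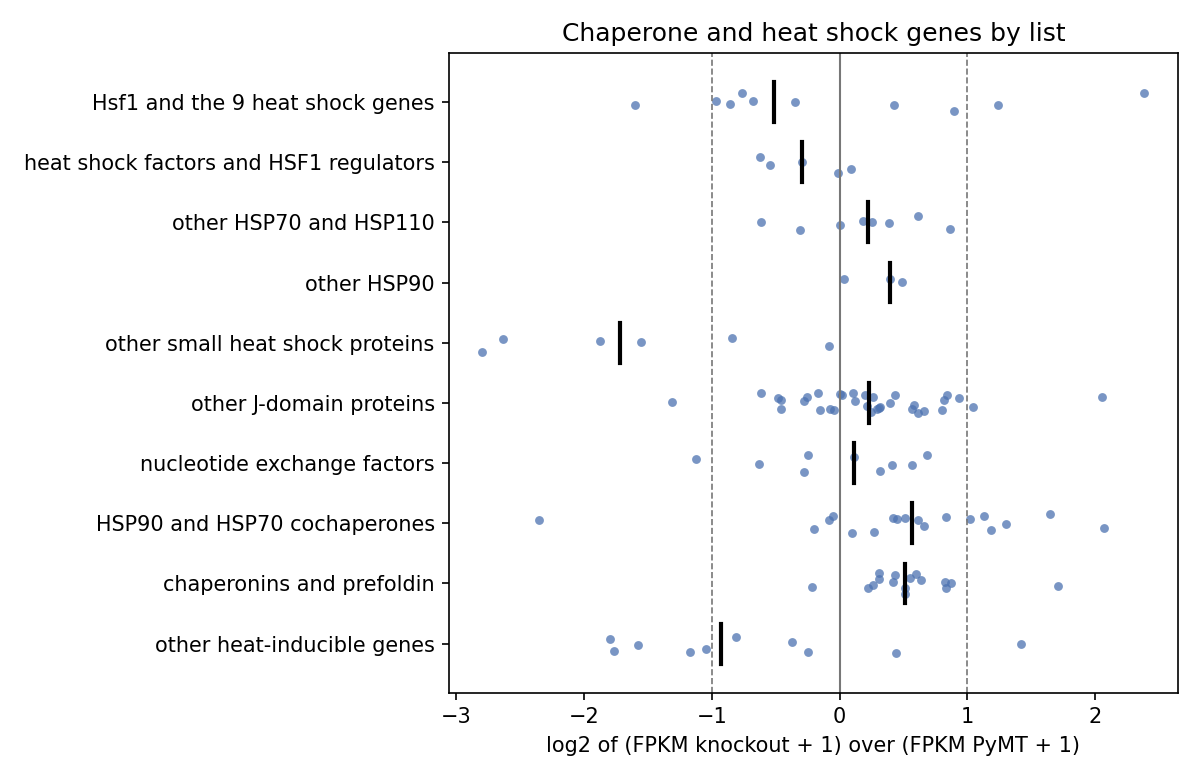
log2 ratio (knockout over PyMT, FPKM + 1) of each gene that passed the filter, by list, with the list median as a black bar, the 2-fold rule as dashed lines and 1 library per group. The other small heat shock proteins have a median of -1.72, with Hspb11 near 0 at -0.08, and 15 of 16 chaperonin and prefoldin genes lie above it.

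Of the 6 measured small heat shock proteins other than Hspb1, 4 were past 2-fold lower in the knockout library, beside lower skeletal muscle transcripts. Among all genes compared 8.78% were past 2-fold lower. Hspb8, the partner of BAG3, was at 84.08 FPKM in PyMT cells and 12.72 in knockout cells, a count ratio of 0.153 (0.138 to 0.169). Hspb7, a heart and muscle member, had 350 counts and 3, a ratio of 0.00869 (0.00178 to 0.0256). Cryab and Hspb2, named beyond the rule as the others past 2-fold, are neighbours whose counts were not whole in the PyMT library, at 47.07 and 12.08 FPKM and at 7.79 and 1.99. Hspb6 was within 2-fold, at 11.76 and 6.10 FPKM. Hspb11, a component of cilia transport, did not differ beyond counting error, with 87 and 86 counts and a ratio of 1.00 (0.735 to 1.37). Muscle also makes Hspb2, Hspb6, Hspb7, Hspb8 and Cryab. Of 10 skeletal muscle markers, 8 passed the filter and all 8 were 2-fold lower, with a summed level of 239.58 FPKM in PyMT cells and 3.54 in knockout cells. Acta1, the muscle actin, had 3127 counts against 7, and 1 marker was not listed in the knockout library. Their part in the small heat shock protein values, and in those of Hspb1 and Bag3, which muscle also makes, was not tested. In such bulk libraries fewer cells of a type and less RNA per cell cannot be told apart.

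A list of other heat-inducible genes held both directions, with 5 of 10 past 2-fold lower and 1 higher (median -0.92). For all genes compared these shares were 8.78% and 10.2%. The zinc finger gene Zfand2a, 1 of the 5 lower genes and named beyond the rule, was at 18.25 and 8.35 FPKM (ratio 0.46, 0.415 to 0.51). Arc (5.65 and 0.91) and Gadd45b (29.61 and 8.02) were the lowest, and both also respond to other stress and growth signals. Mrpl18, a mitochondrial ribosomal protein gene, was the 1 higher, at 31.73 and 86.66 FPKM (ratio 2.79, 2.52 to 3.08), and the collagen chaperone Serpinh1 was at 66.96 and 91.45.

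Other programmes differed between the libraries along with the heat shock genes. For reference, 58% of all genes compared had a ratio above 0, 10.2% were 2-fold higher and 8.78% were 2-fold lower. All 18 immediate-early genes, which respond within minutes to growth factors, stress and tissue dissociation, had a ratio below 0, with 13 past 2-fold and a summed level of 2262.73 FPKM in PyMT cells and 651.67 in knockout cells. The cell cycle list passed 2-fold higher in all 22 genes, at 240.87 and 1186.17 summed FPKM. The 7 epithelial markers summed to 5227.4 and 2594.38 FPKM, all 7 below 0 and 2 past 2-fold lower, and Epcam itself was at 740.82 and 479.66. All 6 neutrophil genes past the filter were 2-fold lower (561.15 and 97.52 summed FPKM over the 7 found, with Ngp and Camp not listed in the knockout library). Most of this sum was Ltf (281.19 and 81.2 FPKM) and S100a8 (225.82 and 14.99). Which cells made these transcripts was not tested. Endothelial genes were at 73.91 and 49.27, fibroblast genes at 513.35 and 638.04, and adipocyte genes at 21.53 and 15.27 with 1 of 6 above the filter, 2 not listed in the PyMT library and 1 not listed in the knockout library. The fibroblast list had 5 genes above 0 and 3 below, and Col1a1, Col1a2 and Col3a1 made most of its sum. Leukocyte genes summed to 99.62 and 160.99, with 1 of 10 not listed in the PyMT library, and most of this sum was the myeloid lysozyme gene Lyz2 (77.38 and 136.92, with a non-whole count in knockout cells). The other 9 summed to 22.24 and 24.07, with Itgam lower (count ratio 0.555) and Adgre1 higher (count ratio 1.54). Zeb1, the targeted gene, had 96 counts in PyMT cells and 38 in knockout cells, at 0.79 and 0.32 FPKM. The part of these programmes in the heat shock values was not tested.

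**Figure D5:**
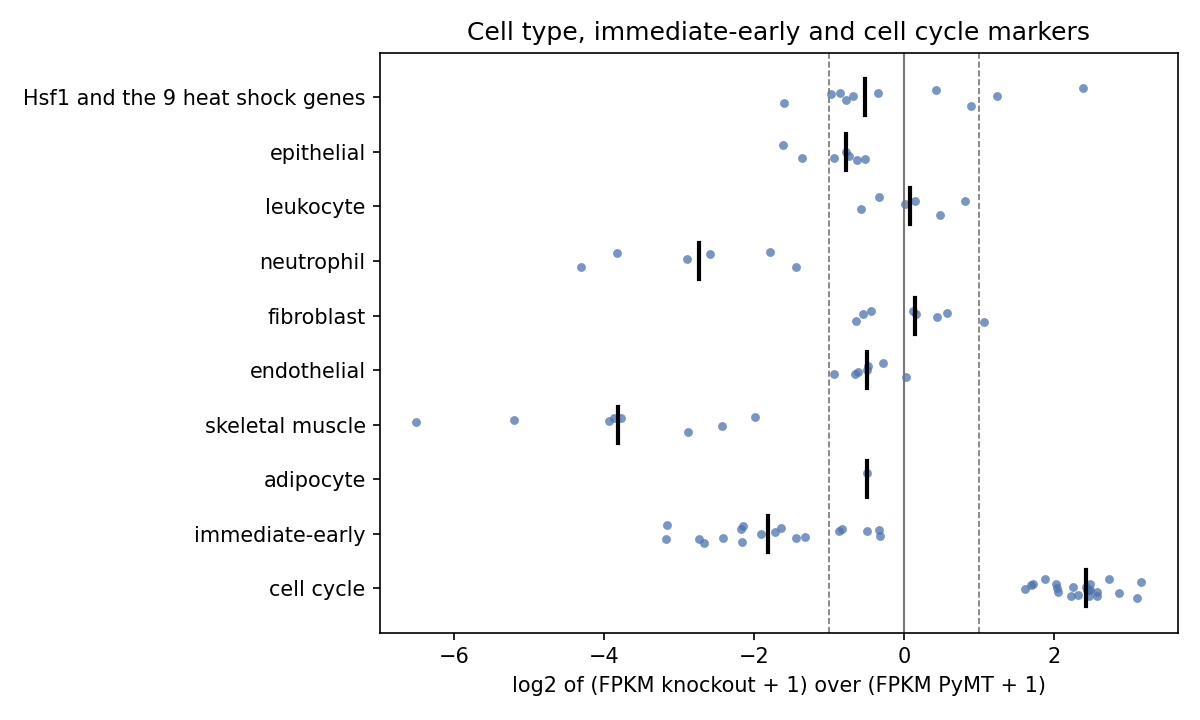
log2 ratio (knockout over PyMT, FPKM + 1) of marker genes that passed the filter, by list, beside Hsf1 and the 9 heat shock genes, with medians as black bars and the 2-fold rule as dashed lines. Skeletal muscle, neutrophil and immediate-early genes lie below 0, and all 22 cell cycle genes lie above the 2-fold line.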

How the data were processed

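Per the file headers, the authors' deposited tables give an expected count and an FPKM value for each gene of each library. The submitters' processing notes name mm10, RSEM 1.2.8, DESeq, HISAT2 2.1.0 and Bowtie2 2.2.5 and do not say what each was used for. No header or label names an annotation. Genes with a value above 0 are listed, and a gene that is not listed entered at 0.

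A gene was kept when its FPKM reached 1 in either library, and log2 ratios used a pseudocount of 1. Count ratios used rounded estimated counts per library total, with exact Clopper-Pearson 95% intervals. With 1 library per group no test was made, and 2-fold is a rule of size. Estimated counts were called whole within 1e-09. The genes and lists were chosen with earlier results of these data known. Named genes were all 10 genes, Zeb1, Epcam, the paralogs compared and the 2 highest and 2 lowest genes of each chaperone list. Genes outside that rule are said to be so, apart from the marker genes and the unnamed model, which was chosen after its values were seen. Positions and promoters are from RefSeq (GRCm38.p6, which mm10 corresponds to), matched by Entrez identifier or symbol, and transcripts and exons from GENCODE M21. Alternatives were a pseudocount of 0.1, other scalings (median ratio, TPM, TMM factors from edgeR 4.0.16 in R 4.3.3), other filters and folds, and the handling of near-identical copies. The steps were tested on simulated counts with counting error only, which hold no spread between animals and no reads shared between copies. Scripts ran in Python 3.11.15 (scipy 1.17.1, pandas 2.3.3, numpy 2.4.6, matplotlib 3.10.9).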

Additional observations from a re-analysis of the deposited data

How the results depend on the processing

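All 10 genes kept the direction of their log2 ratio in every alternative that gave them a value. Apart from the summing of Hspa8 with the unnamed model, this was fixed in advance. A filter or a pseudocount cannot reverse a direction. Among the 10, the scalings lowered the log2 ratios of the higher genes by about 0.15 at most, and the smallest of those ratios was 0.43, for Hsf1. They did not raise the ratio of any of the lower genes. The median of all genes, 0.13, was -0.00044 with the median ratio and -0.00069 with TMM factors, which centre it by construction. For the 10 genes the median moved from -0.52 to -0.64 with either of these, to -0.13 at a mean FPKM of at least 5 (8 genes left) and to -0.35 with Hspa1a and Hspa1b summed, with or without the unnamed model added to Hspa8. The count 2-fold lower was 2 of 10 with a pseudocount of 0.1 (Hspa1a added) and with the median ratio, TPM or TMM scaling (Hspb1 added). At 1.5-fold it was 5 of 10. Without non-whole genes 6 of the 10 were left and the count was 0, which was fixed in advance because Hspa1b was removed. The count 2-fold higher was 1 at 3-fold, and 1 without non-whole genes, which removed Hspa8. It was also 1 with the unnamed model added to Hspa8, alone or with Hspa1a and Hspa1b summed, an alternative chosen after seeing the data. The latter moved the log2 change of the Hspa1a and Hspa1b share relative to Hspa8 from -2.83 to -2.29. The 109 other chaperone genes had a median of 0.11 and 7 in place of 10 genes 2-fold higher with the median ratio or TMM. Of these 109, 27 were higher at 1.5-fold, and 4 were higher and 6 lower at 3-fold. Of all 12653 genes compared, 2994 were higher and 2180 lower at 1.5-fold, and 414 higher and 447 lower at 3-fold. At a mean FPKM of at least 5, 739 of the 8866 genes left were 2-fold lower. Of genes past 2-fold in either direction, the higher count went from 1291 to 958 with the median ratio while the lower went from 1111 to 1327, and to 975 and 1353 with TMM. No paired analysis was possible because each group has 1 library. Depth allows intervals for counting error only, and precision is lowest for Hspa4l and Hspa1a.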
